A study of Mus musculus with 14 samples.

Results

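The genes of the interleukin-2 (IL-2) receptor, its STAT5 relay and the SOCS family brakes on it were followed in 14 RNA-seq libraries of intestinal regulatory T cells (Tregs). They were taken by name as Il2ra, Il2rb, Il2rg, Jak3, Stat5a, Stat5b, Cish, Socs1, Socs2 and Socs3, 10 genes among 53801 gene IDs listed for Foxp3-YFP-cre mice and 55487 listed for the inducible line. Each of the 10 passed the filter on low counts in every comparison.

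IL-2 is bound by a receptor whose β and γ chains, encoded by Il2rb and Il2rg, carry the signal, while the α chain CD25, encoded by Il2ra, raises its affinity. The kinase JAK3 sits on the γ chain and acts with JAK1 to phosphorylate STAT5A and STAT5B, which then enter the nucleus and turn on target genes. Among these targets are CIS (Cish) and the SOCS proteins, which bind phosphorylated receptors or kinases and damp the same signal. Tregs make little IL-2 themselves, take it up from other T cells and usually carry much CD25, whereas follicular regulatory T (Tfr) cells of the Peyer's patch (PP) carry little.

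The study asked what the AP-1 factor JunB does in Tregs of PP and colon. PP Tregs came from male Foxp3-YFP-cre mice with 1 (JunB F/+, HET, n = 2) or both (JunB F/F, KO, n = 2) floxed Junb alleles, generally 8 to 12 weeks old and untreated. CD25- PP Tregs (2 iHET and 2 iKO libraries) and colonic lamina propria Tregs (3 iHET and 3 iKO mice) came from Foxp3-EGFP-cre-ERT2 mice with a Rosa26-tdTomato reporter, 10 to 12 weeks old, which were gavaged with 8 mg tamoxifen in olive oil on days 0, 1 and 3 and taken on day 7. In the inducible line, mouse 1 of each group was male and the others female. Every control mouse could delete 1 Junb allele, so the comparisons are of homozygous with heterozygous loss. Cre is driven by Foxp3 in both lines, and the study reports germline and promiscuous deletion in the Foxp3-YFP-cre line. The CD25- PP gate selects on the protein of Il2ra, and the full sort gate of the Foxp3-YFP-cre PP Tregs, which is narrower than all Tregs, is not given here.

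Libraries held 26274861 to 35508709 counts. A floor of 3 counts lay between 0.0845 and 0.114 CPM (counts relative to library size), before the normalization used for gene levels. Junb was at 4182 to 8471 CPM in the 7 heterozygous and at 561 to 1029 CPM in the 7 knockout libraries, so each library matched its label. The 6 Treg markers, among them Foxp3, Ctla4 and Cd4, were detected in each group and summed to 4068 to 7348 CPM. Markers of other cells were also detected, with 42.6 to 153 CPM over 5 B cell genes, 57.9 to 280 CPM over 6 myeloid genes and 41.4 to 1634 CPM over 6 epithelial genes. In bulk libraries, fewer cells of a type and less RNA per cell cannot be told apart. CPM were normalized over the 4 libraries of the Foxp3-YFP-cre line and over the 10 of the inducible line separately, so levels of the 2 lines are given side by side.

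On GRCm38, Il2ra (ENSMUSG00000026770.5) lies on chromosome 2 from 11642807 to 11693193, Il2rb (ENSMUSG00000068227.9) on chromosome 15 from 78479256 to 78495271, and Il2rg (ENSMUSG00000031304.18) on chromosome X from 101264378 to 101268255. Jak3 (ENSMUSG00000031805.17) lies on chromosome 8 from 71676296 to 71690575, 13.3 Mb from the targeted Junb. Stat5b (ENSMUSG00000020919.11, 100780731 to 100850724) and Stat5a (ENSMUSG00000004043.14, 100859351 to 100885169) are neighbours on chromosome 11, on opposite strands and 8.63 kb apart. Cish (ENSMUSG00000032578.7) lies on chromosome 9 from 107296026 to 107302784, Socs1 (ENSMUSG00000038037.5) on chromosome 16 from 10782240 to 10785536, Socs2 (ENSMUSG00000020027.18) on chromosome 10 from 95385362 to 95417180 and Socs3 (ENSMUSG00000053113.3) on chromosome 11 from 117966079 to 117970047. Reads were counted without strand, and 740 exon bases of Cish also belong to Gm17040 or Gm17041, 728 of Il2rg to Gm20489, 404 of Jak3 to Insl3 and 72 of Stat5a to Stat3. Of the 50-base stretches in the transcripts, 27.5% of those of Il2rg, 11% of Stat5b, 8.52% of Stat5a, 9.35% of Cish, 7.21% of Jak3, 4.58% of Socs2 and 1.78% of Il2ra also occur in another gene, so reads of these genes could be lost or split. Il2rb, Socs1 and Socs3 share 0%.

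RefSeq promoter windows on GRCm38.p6, from 250 bases before to 50 after a transcript start, were at hand for 8 of the 10 genes (10 windows). They were searched for TTCNNNGAA, the palindrome bound by STAT factors, and for TGANTCA, the palindrome bound by AP-1 factors such as JunB. Both read the same on either strand. TTCNNNGAA was found in 2 of the 8 genes, Cish and Socs3, and TGANTCA in 0, while 8.30% and 7.81% of all 32851 windows held them. Cish and Socs3 are shown because they hold the matches, which are in capitals, and Il2ra because it rose with them in KO PP Tregs and holds none. The windows are chr9:107296409-107296708 on the plus strand for Cish, chr11:117969317-117969616 on the minus strand for Socs3 and chr2:11642542-11642841 on the plus strand for Il2ra.
Cish: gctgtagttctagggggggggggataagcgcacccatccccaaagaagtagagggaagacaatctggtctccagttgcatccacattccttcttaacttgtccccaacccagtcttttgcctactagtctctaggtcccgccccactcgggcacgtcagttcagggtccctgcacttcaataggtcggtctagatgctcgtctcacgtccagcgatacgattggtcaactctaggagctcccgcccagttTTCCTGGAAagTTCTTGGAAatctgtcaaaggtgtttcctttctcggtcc
Socs3: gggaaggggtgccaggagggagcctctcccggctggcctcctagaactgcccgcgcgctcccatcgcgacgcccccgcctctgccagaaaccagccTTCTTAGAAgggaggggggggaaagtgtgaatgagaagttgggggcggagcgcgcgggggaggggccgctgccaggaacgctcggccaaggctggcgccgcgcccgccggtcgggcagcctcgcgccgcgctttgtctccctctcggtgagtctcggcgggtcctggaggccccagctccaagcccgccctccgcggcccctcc
Il2ra: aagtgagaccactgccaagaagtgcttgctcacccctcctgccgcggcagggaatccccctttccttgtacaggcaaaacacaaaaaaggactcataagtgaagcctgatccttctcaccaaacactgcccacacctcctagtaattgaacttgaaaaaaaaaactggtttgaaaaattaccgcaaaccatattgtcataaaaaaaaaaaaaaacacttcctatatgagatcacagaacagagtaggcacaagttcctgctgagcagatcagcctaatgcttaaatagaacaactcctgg
The matches in Cish begin at bases 251 and 262 of its window, next to the transcript start, and the match in Socs3 at base 97. A match is a run of letters and was not tested for binding, and windows without a match say nothing of sites elsewhere.

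In PP Tregs of KO mice, the receptor's α chain and 3 of the 4 feedback genes were higher than in HET mice, and the other chains, Jak3 and Stat5a and Stat5b were not called. Of the 10 genes, 4 passed the FDR of 0.05 (Il2ra, Cish, Socs2 and Socs3) and all 4 were higher. Of the 12224 genes tested, 3.35% passed, 0.990% as higher. The study's own gene set analysis of this comparison had already named Il2ra, Cish and Socs2 within a raised IL-2/STAT5 set. The 10 genes thus hold its hits, and the count of calls is a description. The median log2 fold change of the 10 was 0.33, beside 0.00 over all genes tested. For 8 of the 10, both KO values exceeded both HET values, which 21.8% of all genes also showed.

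Il2ra (CD25) was at 463 and 478 CPM in HET mice, against 683 and 882 CPM in KO mice. The KO libraries were both higher but lay further apart from each other than the HET libraries. In edgeR's quasi-likelihood test, adjusted by Benjamini-Hochberg, the log2 fold change was 0.73 with a standard error of 0.123 and an adjusted p of 0.0199. Il2rb, the β chain shared with the IL-15 receptor, was at 1607 and 1635 CPM in HET and at 1824 and 2071 CPM in KO libraries. These groups did not overlap, but the difference was small on the log2 scale, 0.27 (95% interval 0.03 to 0.50, adjusted p = 0.27 with edgeR). Il2rg, the γ chain shared by several cytokine receptors, was at 641 and 639.8 CPM in HET and at 706 and 683 CPM in KO libraries, a log2 difference of 0.12 (95% interval -0.07 to 0.30, edgeR adjusted p = 0.623). Of the 3 chains, only Il2ra passed the FDR in this comparison.

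The kinase and the STAT5 genes were close in both genotypes. Jak3 was at 609.6 and 571 CPM in HET and at 622 and 582 CPM in KO libraries, which overlapped (log2 fold change 0.03, 95% interval -0.17 to 0.23). Stat5a was at 188 and 204 CPM in HET and at 199 and 220 CPM in KO libraries, also overlapping (0.10, interval -0.10 to 0.29). For Stat5b, the 455 and 477 CPM of HET were both under the 497 and 517 CPM of KO libraries (0.12, interval -0.06 to 0.31). The adjusted p was 0.599 or above for the 3 genes, and changes in either direction of more than 0.31 on the log2 scale lie outside their intervals.

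Cish, which encodes CIS, had 196 and 194 CPM in HET mice, against 391 and 403 CPM in KO mice. Replicates were close together, and the fold difference was 2.03 (log2 fold change 1.02, 95% interval 0.85 to 1.20, edgeR adjusted p = 0.00107). Socs2, known as a brake on growth hormone signalling through STAT5, was at 52.0 and 55.2 CPM in HET and at 126 and 134 CPM in KO libraries. It had the highest fold difference of the 10 genes here, 2.42 (log2 fold change 1.27, interval 1.07 to 1.48, edgeR adjusted p = 0.00082). Socs3, best known as a brake on IL-6 family receptors through gp130, was at 484 and 517 CPM in HET and at 709 and 739 CPM in KO libraries. Its groups were apart, with a fold difference of 1.45 (log2 fold change 0.53, interval 0.34 to 0.73, edgeR adjusted p = 0.0162). Socs1, which inhibits JAK kinases directly, was at 169 and 201 CPM in HET and at 228 and 260.3 CPM in KO libraries. Both KO libraries were higher, with a log2 fold change of 0.40 (interval 0.16 to 0.64), but Socs1 did not pass the FDR (edgeR adjusted p = 0.102). It passed with the exact test of the study, at an adjusted p of 0.0352.

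Cish and Socs2 passed in all 9 alternatives. Il2ra did not pass without HET replicate 1 (adjusted p = 0.203) or 2 (0.133), nor Socs3 without HET replicate 1 (0.15), HET replicate 2 (0.0793) or KO replicate 2 (0.0591), while their log2 fold changes stayed between 0.48 and 0.91.

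Markers of Tregs and of other cells moved with these changes. The 6 Treg markers summed to 6115 to 6732 CPM in HET and to 7071 to 7348 CPM in KO libraries, with 1 of them, Foxp3, higher. The 6 Tfr markers summed to 1492 to 1715 CPM in HET and to 858 to 871 CPM in KO libraries, and 5 of them (Sostdc1, Tox2, Bcl6, Pdcd1 and Ascl2) were lower in KO mice. The 6 epithelial markers fell from 105 to 129 CPM in HET to 41.4 to 44.3 CPM in KO libraries, with 5 lower (Krt8, Krt19, Epcam, Krt20 and Krt18). Of the 6 cytotoxic and NK genes, Klrb1c and Nkg7 were lower, and their sums were 69.4 to 86.0 CPM in HET and 45.0 to 48.1 CPM in KO libraries. None of 5 B cell or 4 myeloid genes tested passed the FDR, with B cell sums of 131 to 153 CPM in HET and 78.2 to 117 CPM in KO libraries. The part of these marker shifts in the changes of Il2ra, Cish, Socs2 and Socs3 was not tested.

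**Figure D1:**
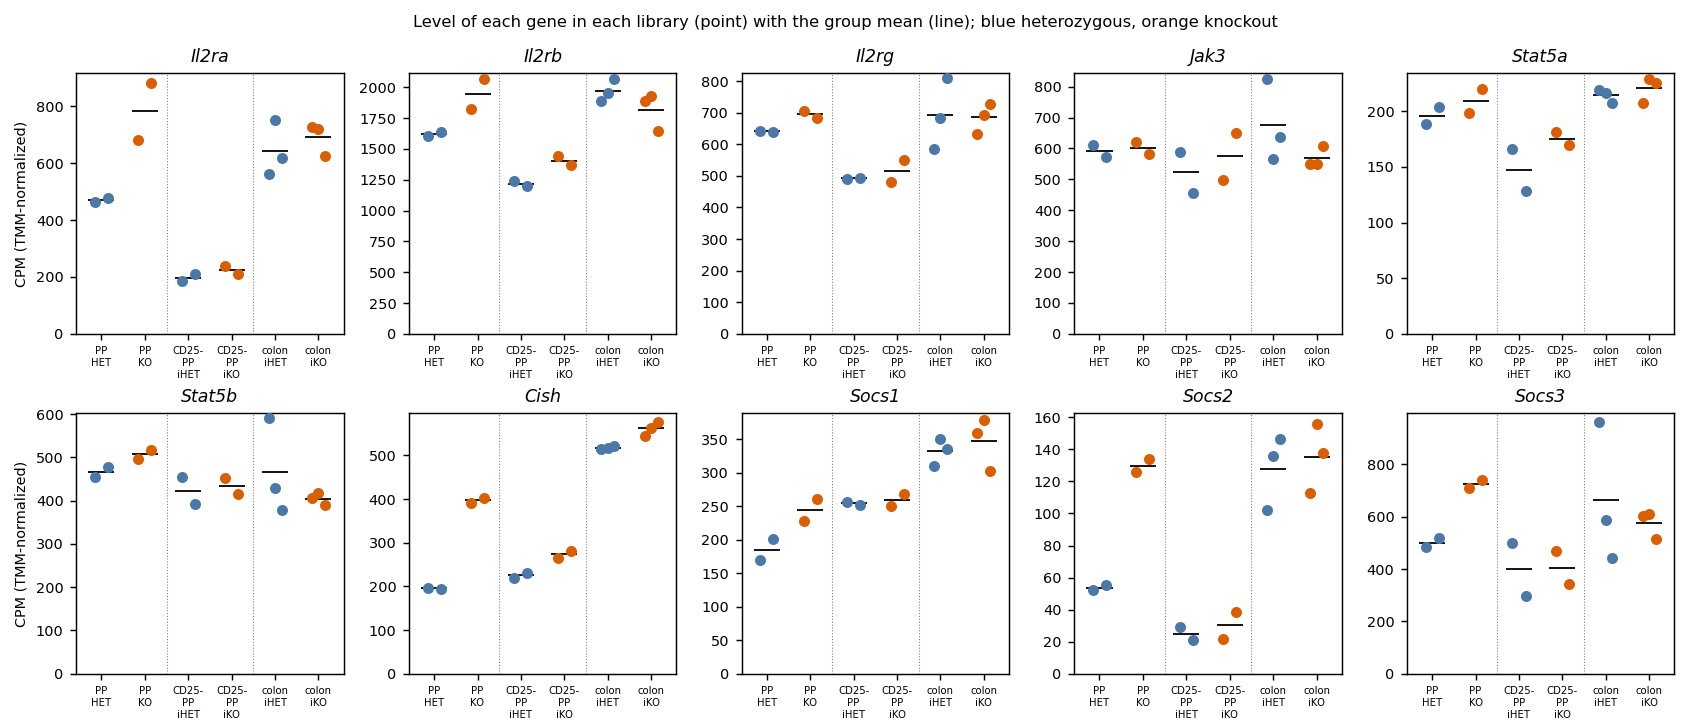
CPM of each of the 10 genes (vertical axis, from 0) in each library (point), by group along the horizontal axis, with the group mean as a line, heterozygous mice in blue and knockout mice in orange. Cish stands at 194 to 196 CPM in HET and at 391 to 403 CPM in KO PP Tregs, and at 515 to 578 CPM in all 6 colonic libraries. Levels of the Foxp3-YFP-cre line, left of the first dotted line, were normalized apart from the others.

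In CD25- PP Tregs of iKO mice, none of the 10 genes passed the FDR. Of 17079 genes tested, 0 passed with edgeR's quasi-likelihood test (0%), while 618 had an unadjusted p under 0.05, and DESeq2 called 35 and the exact test 43. None of the 10 was among either set, and 0 of the 10 had an unadjusted p under 0.05. Junb, the deleted gene, did not pass the quasi-likelihood test either. It was at 5547 and 4182 CPM in iHET and at 891.2 and 911.5 CPM in iKO libraries. The lack of a call here thus does not show a lack of change. The 10 genes had log2 fold changes between 0.02 and 0.27 with a median of 0.16, beside -0.00 over all genes. In 3 of them, Il2rb, Stat5a and Cish, both iKO libraries were above both iHET libraries, as for 16.5% of all genes.

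Il2ra was still measured in these cells sorted for the absence of CD25 protein, at 185 and 209 CPM in iHET and at 239 and 209 CPM in iKO libraries. The groups met at 209 CPM, and the log2 fold change was 0.18 (95% interval -0.15 to 0.52). Il2rb was at 1237 and 1196 CPM in iHET and at 1440 and 1371 CPM in iKO libraries (0.20, interval -0.09 to 0.49). Il2rg was at 490.4 and 493 CPM in iHET and at 480.3 and 549 CPM in iKO libraries, which overlapped (0.06, interval -0.25 to 0.37).

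Of the signal carriers, Jak3 was at 588 and 457 CPM in iHET and at 499 and 651 CPM in iKO libraries, and Stat5b at 454 and 391 CPM in iHET and at 453 and 416 CPM in iKO libraries. Both overlapped between genotypes. Stat5a was at 166 and 128 CPM in iHET and at 181 and 170 CPM in iKO libraries (log2 fold change 0.25, interval -0.13 to 0.62).

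Among the feedback genes, Cish was at 219 and 231 CPM in iHET and at 265 and 282 CPM in iKO libraries. Its log2 fold change was 0.27 (interval -0.02 to 0.57), with an unadjusted p of 0.0633 and an adjusted p of 0.999 in edgeR's quasi-likelihood test. Socs2 was low, at 29.1 and 20.9 CPM in iHET and at 21.8 and 38.5 CPM in iKO libraries, and its interval was wide (0.26, -0.48 to 1.00). Socs1 was at 256 and 252 CPM in iHET and at 251 and 268 CPM in iKO libraries (0.02, -0.27 to 0.31). Socs3 was at 500 and 297 CPM in iHET and at 468 and 342 CPM in iKO libraries (0.02, -0.64 to 0.68), so its spread between libraries exceeded the difference between genotypes. For Il2ra, Cish and Socs2, a change of the size seen in KO PP Tregs lies above the interval here. The interval of Socs3 includes the change seen there. For Il2ra, the gate on CD25 protein limits this comparison.

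That difference between the lines was tested as an interaction over the 8 PP libraries, where 1 of 17109 genes passed (0.00584%) and it was not among the 10, of which 3 had an unadjusted p under 0.05. The change of Cish was larger in the Foxp3-YFP-cre line by 0.74 on the log2 scale (standard error 0.130, unadjusted p = 0.000365, edgeR adjusted p = 0.157), that of Socs2 by 1.01 (standard error 0.351, adjusted p = 0.484) and that of Il2ra by 0.54 (standard error 0.205, adjusted p = 0.53). With DESeq2, the interaction passed for 210 genes, Cish among them (adjusted p = 2.24e-05). Line, timing of deletion, tamoxifen, gate, sex and sequencing run differ together between these libraries and cannot be told apart.

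In colonic Tregs of iKO mice, none of the 10 genes passed the FDR either. Of 16313 genes, 1 passed (0.00613%), which was Junb. The log2 fold changes of the 10 lay between -0.24 and 0.11 with a median of 0.01, beside 0.00 over all genes, and adjusted p-values were 0.947 or above with edgeR's quasi-likelihood test. An unadjusted p under 0.05 was seen for 0 of the 10 and 632 of all genes, and neither DESeq2 nor the likelihood ratio test, which called 50 and 25 genes, called any of the 10. For Cish alone, all 3 iKO libraries lay above all 3 iHET libraries, as for 3.86% of all genes.

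Il2ra was at 561, 752 and 620 CPM in iHET and at 727, 722 and 626 CPM in iKO colonic libraries, an overlap over most of the range (log2 fold change 0.11, 95% interval -0.20 to 0.42). Il2rb was at 1892, 1956 and 2065 CPM in iHET and at 1886, 1926 and 1642 CPM in iKO libraries (-0.12, -0.42 to 0.18). Il2rg was at 583, 683 and 808 CPM in iHET and at 632.5, 694 and 729 CPM in iKO libraries (-0.01, -0.28 to 0.26). The 3 receptor chains thus overlapped between genotypes in the colon.

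Colonic iHET mouse 1 stood above the other colonic mice in 3 genes. Jak3 was at 825, 566 and 637 CPM in iHET and at 549, 549 and 608 CPM in iKO libraries. Stat5b was at 591, 429 and 379 CPM in iHET and at 406, 418 and 390.2 CPM in iKO libraries. Socs3 was at 962, 588 and 443 CPM in iHET and at 604, 611 and 513 CPM in iKO libraries. Without iHET mouse 1, the log2 fold change of Socs3 went from -0.14 to 0.13 and that of Stat5b from -0.18 to 0.00, and the values without iKO mouse 1 were the same to this precision, since the cage term leaves a lone mouse of a number out of the contrast. The sign for Socs3 and the difference of Stat5b thus rested on the number 1 pair, both males. Jak3 stayed negative, at -0.06, without either mouse of that pair.

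Cish was at 515, 518 and 521 CPM in iHET and at 545, 563 and 577.5 CPM in iKO colonic libraries. The groups did not overlap, but the difference was small (log2 fold change 0.11, interval -0.13 to 0.35, edgeR adjusted p = 0.947). Socs2 was at 102, 136 and 146 CPM in iHET and at 113, 156 and 137.5 CPM in iKO libraries (0.08, -0.19 to 0.35). Socs1 was at 310, 350 and 335 CPM in iHET and at 359, 378 and 302.5 CPM in iKO libraries (0.06, -0.23 to 0.34), and Stat5a at 219, 217 and 208 CPM in iHET and at 207, 229 and 225 CPM in iKO libraries (0.04, -0.21 to 0.28). Each of these 3 genes overlapped between genotypes.

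**Figure D2:**
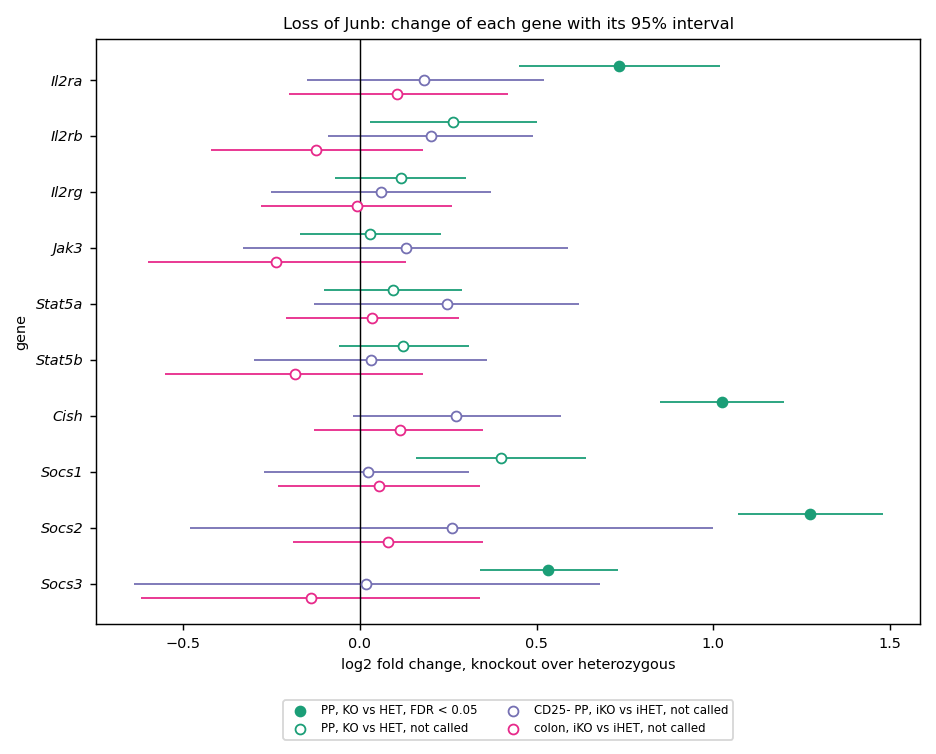
Log2 fold change of knockout over heterozygous mice (horizontal axis) for each gene, with its 95% interval as a line, in PP (green), CD25- PP (violet) and colonic Tregs (pink), with filled points for an FDR under 0.05. The 4 filled points, Il2ra, Cish, Socs2 and Socs3 in PP Tregs, lie between 0.53 and 1.27, and the other points lie at 0.40 or below.

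Between colonic and CD25- PP Tregs of the inducible line, the β chain, Stat5a and the feedback genes Cish and Socs2 differed beside Il2ra. In iHET mice, 5 of the 10 genes passed the FDR, Il2ra, Il2rb, Stat5a, Cish and Socs2, and each was higher in the colon. Of 18626 genes tested, 6.45% passed, 4.22% as higher in the colon. The median log2 fold difference of the 10 was 0.62, beside -0.01 over all genes, and for 7 of them all colonic were above all CD25- PP libraries, as for 18.8% of all genes. In iKO mice, Il2ra, Cish and Socs2 passed, 3 of 10, where 4.07% of all genes passed, 2.48% as higher in the colon, and for 8 genes all colonic libraries were above (23.0% of all genes). These comparisons use the same libraries as those of genotype. The calls, the non-overlapping genes and the median all include Il2ra, whose protein was gated in PP only, so these counts are descriptions. Organ and gate differ together, since colonic Tregs were not sorted on CD25. Males also make up a larger share of the CD25- PP than of the colonic libraries.

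Il2ra is therefore a description here. Its 6 colonic libraries, at 561 to 752 CPM, were all above the 4 CD25- PP libraries at 185 to 239 CPM, and the log2 fold difference was 1.71 in iHET and 1.63 in iKO mice. Il2rb, which was not part of the gate, was at 1892 to 2065 CPM in colonic and at 1196 and 1237 CPM in CD25- PP Tregs of iHET mice, a log2 fold difference of 0.70 (standard error 0.116, edgeR adjusted p = 0.00906). In iKO mice Il2rb was at 1642 to 1926 CPM in colonic and at 1371 and 1440 CPM in CD25- PP Tregs, with a log2 fold difference of 0.37 (edgeR adjusted p = 0.0989). Il2rg was higher in every colonic library, at 583 to 808 CPM against 480.3 to 549 CPM, but did not pass the FDR in iHET (0.49, adjusted p = 0.0849) or iKO mice (0.41, adjusted p = 0.153).

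Stat5a was at 208 to 219 CPM in colonic and at 128 and 166 CPM in CD25- PP Tregs of iHET mice (log2 fold difference 0.54, standard error 0.131, edgeR adjusted p = 0.0389). It was at 207 to 229 CPM against 170 and 181 CPM in iKO mice (0.33, adjusted p = 0.184). Its neighbour Stat5b overlapped between organs, with log2 fold differences of 0.14 in iHET and -0.10 in iKO mice. Jak3 overlapped too, with 0.37 and -0.02.

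Cish was at 515 to 521 CPM in colonic and at 219 and 231 CPM in CD25- PP Tregs of iHET mice, 2.3-fold higher (log2 fold difference 1.20, standard error 0.105, edgeR adjusted p = 0.000596). In iKO mice it was at 545 to 577.5 CPM against 265 and 282 CPM (1.04, standard error 0.104, adjusted p = 0.00132). Socs2 differed most of the 10 genes, at 102 to 146 CPM against 20.9 and 29.1 CPM in iHET mice (2.36, standard error 0.287, adjusted p = 0.00256) and at 113 to 156 CPM against 21.8 and 38.5 CPM in iKO mice (2.17, standard error 0.284, adjusted p = 0.00508). Socs1 was higher in every colonic library, at 302.5 to 378 CPM against 251 to 268 CPM, with log2 fold differences of 0.38 (adjusted p = 0.105) and 0.42 (adjusted p = 0.0962). Socs3 ranged over 443 to 962 CPM in colonic and 297 to 500 CPM in CD25- PP Tregs, and did not pass (0.74 with an adjusted p of 0.214, and 0.51 with 0.4).

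Cish passed in all 14 alternatives in both genotypes, and Socs2 in all but that without CD25- PP iKO replicate 1 (adjusted p = 0.0531, iKO mice). Il2rb in iHET mice did not pass without CD25- PP iHET replicate 2 (adjusted p = 0.0933), and Stat5a passed in 4 of 14 alternatives (adjusted p from 0.00175 to 0.334).

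The interaction of organ and genotype passed for 0 of 18626 genes (0%) with edgeR's quasi-likelihood test, with 622 at an unadjusted p under 0.05 and 2 called by DESeq2. For the 10 genes, it lay between -0.39 for Jak3 and 0.03 for Socs1, with adjusted p-values of 1, 0 unadjusted p-values under 0.05 and 0 calls by DESeq2. The interval was -0.48 to 0.16 for Cish and -1.01 to 0.64 for Socs2.

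Immediate early genes and markers of Tregs and of other cells also differed between the organs. The 6 Treg markers summed to 5230 to 6145 CPM in colonic and 4068 to 4973 CPM in CD25- PP Tregs. Ctla4 and Foxp3 were higher in the colon in iHET mice, and Ikzf2 was lower there in iKO mice. The 11 immediate early genes summed to 17195 to 27064 CPM in colonic and 11839 to 17371 CPM in CD25- PP Tregs, and Atf3 and Zfp36 were higher in the colon in both genotypes. Epithelial sums were 146 to 1634 CPM in colonic and 85.1 to 213 CPM in CD25- PP Tregs, with none of 6 genes past the FDR, and the myeloid gene Cd14 was higher in the colon. Tfr sums were 1041 to 1536 CPM in colonic and 1270 to 1826 CPM in CD25- PP Tregs, with Sostdc1 and Cxcr5 lower in the colon in both genotypes. The 6 cytotoxic and NK genes summed to 35.4 to 56.9 CPM in colonic and 81.7 to 111 CPM in CD25- PP Tregs, with Nkg7 and Cd8a lower in the colon in iKO mice. Their part in the differences of Il2rb, Stat5a, Cish and Socs2 was not tested.

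**Figure D3:**
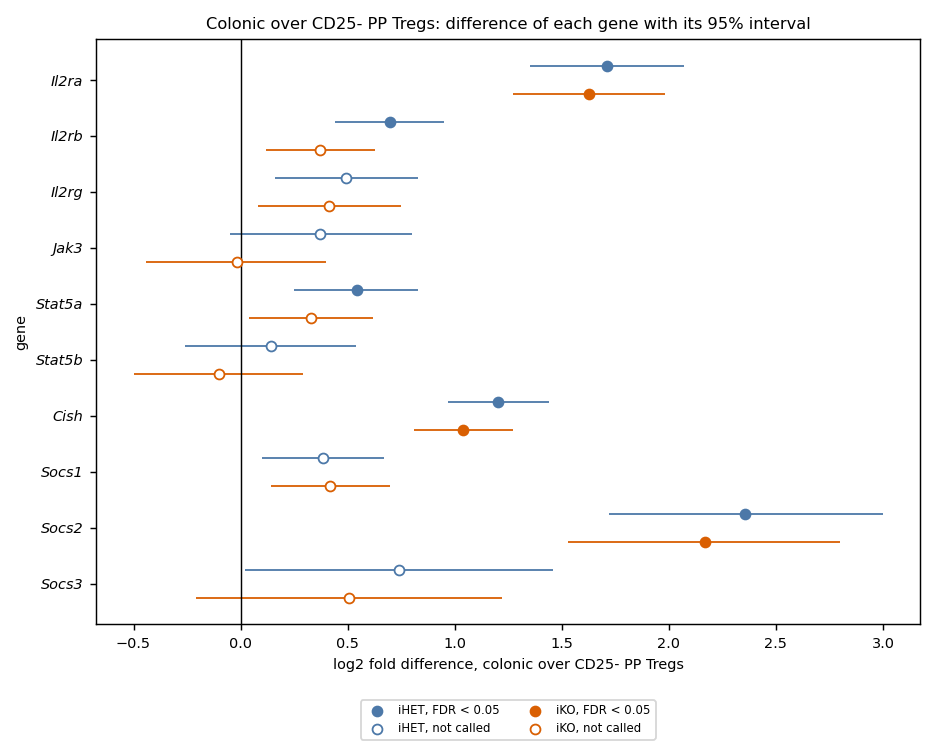
Log2 fold difference of colonic over CD25- PP Tregs (horizontal axis) for each gene, with its 95% interval as a line, in iHET (blue) and iKO mice (orange), with filled points for an FDR under 0.05. Socs2 (2.36 and 2.17), Il2ra (1.71 and 1.63, part of the PP gate) and Cish (1.20 and 1.04) lie farthest to the right, and Jak3 and Stat5b straddle 0.

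The order of the genes by level was compared as CPM per kilobase of annotated exon, a length that counts every annotated exon and so lowers genes with rarely used ones. Il2rb and Il2rg were first and second in all 6 groups, with means of 284 to 460 and of 206 to 291 CPM per kilobase, and their libraries did not overlap within any group. Socs3 came next in each group, at 138 to 250 CPM per kilobase, but overlapped with Il2rg in colonic iHET Tregs and with Jak3 in 3 of the groups. Socs2 was last and Stat5a ninth in each group, at 2.62 to 14.2 and 20.6 to 30.9 CPM per kilobase. The ranks between them changed. Il2ra was sixth in HET PP Tregs at 82.3, not separate from Stat5b at 84.2, and in KO PP Tregs it was at 137, ahead of Jak3. In CD25- PP Tregs Il2ra was eighth, at 34.4 in iHET and 39.2 in iKO mice, and overlapped with Cish in both. Cish was between 30.4 in HET PP Tregs and 87.5 CPM per kilobase in colonic iKO Tregs, where it stood above Stat5b.

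Of the ligands of the family, Il2 and Il15 were scarce. Il2 itself had 8 to 57 counts per library (0.258 to 1.81 CPM), and Il15, a ligand that also uses Il2rb and Il2rg, had 1 to 56 counts. Il2 was tested only in the fit over both organs. It did not pass between organs (log2 fold difference -0.85 in iHET and 0.85 in iKO mice, edgeR adjusted p = 0.433 and 0.453). Its interaction of organ and genotype was 1.70 (standard error 0.868) and did not pass either. Of the other ligands of Il2rg, Il21 was at 15.9 and 12.4 CPM in HET and at 2.58 and 3.08 CPM in KO PP Tregs. It was lower in KO mice (log2 fold change -2.31, edgeR adjusted p = 0.00449). Il4 was at 23.9 and 22.1 CPM in HET and at 37.3 and 34.9 CPM in KO PP Tregs, which was higher (0.65, adjusted p = 0.0235). Il4 was lower in colonic than in CD25- PP Tregs, with log2 fold differences of -1.80 in iHET (adjusted p = 0.0242) and -1.56 in iKO mice (adjusted p = 0.0498).

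Around the 10 genes, much of the machinery of the pathway did not pass between genotypes in PP Tregs. None of 8 other JAK and STAT genes (log2 fold changes -0.07 to 0.11), 13 other brakes such as Socs4 to Socs7, PIAS and PTPN genes (-0.34 to 0.11), or 11 genes of the relay to MAPK and PI3K (-1.34 to 0.26) passed the FDR. Of 5 other receptor chains that pair with Il2rg, Il7r, the α chain for IL-7, was higher in KO mice, from 264 and 296.5 to 428 and 398 CPM (0.56, edgeR adjusted p = 0.0167). In CD25- PP and in colonic Tregs, none of the genes in any of the lists passed between genotypes with edgeR's quasi-likelihood test. Gzmb, from the STAT5-induced list below, was among these, at a log2 fold change of -1.36 in colonic Tregs. The study reports Gzmb as strongly dependent on JunB in colonic Tregs. Other tests were not read out for these lists.

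Among genes that STAT5 is known to induce in T cells, calls in PP Tregs went both ways, with more of them higher. Of 20, 4 were higher and 2 lower in KO mice, the latter Gzmb and Pim2, where 3.35% of all genes passed and 0.990% were higher, with a median log2 fold change of 0.27 beside 0.00 over all genes. The cytokine gene Lta was higher (0.74, adjusted p = 0.0148), as were the Treg factor Foxp3 (0.51, adjusted p = 0.0167) and the survival gene Bcl2 (0.52, adjusted p = 0.0173). The transcriptional repressor gene Prdm1 was the other. The cytotoxic granzyme Gzmb, which the study proposes as a direct target of JunB, was lower (-2.73, edgeR adjusted p = 0.0287). The kinase gene Pim2 was at -0.48. Of 6 genes that IL-2 and STAT5 are known to lower, 2 were lower in KO mice, Bcl6, the factor of follicular T cells, at -0.84 (adjusted p = 0.00449) and Il6st, which encodes gp130, at -0.60 (adjusted p = 0.0147), while Il7r was higher. Bcl6 is also one of the Tfr markers above.

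Between organs in iHET mice, 8 of the 20 induced genes were higher in the colon and 0 lower (of all genes, 6.45% passed and 4.22% were higher), with a median log2 fold difference of 0.83 beside -0.01 over all genes. Bcl2l1, which encodes the survival protein Bcl-xL, went from 56.9 and 54.1 CPM in CD25- PP to 216, 269.6 and 281 CPM in colonic Tregs (2.20, edgeR adjusted p = 0.000206). The costimulatory receptor gene Tnfrsf9 differed by 1.96 (adjusted p = 0.00348), the repressor gene Prdm1 by 1.07 (adjusted p = 0.0108) and the cyclin gene Ccnd2 by 0.85 (adjusted p = 0.0152). Gzmb, Ctla4, Foxp3 and Gata3 were the others. Of the 6 genes lowered by IL-2, Tcf7, Il6ra and Cxcr5 were lower in the colon (-1.66, -1.51 and -2.02, adjusted p = 0.015, 0.0406 and 0.0462), and Il7r was higher (0.67, adjusted p = 0.0268). In iKO mice, 4 of the 20 were higher (Bcl2l1, Tnfrsf9, Ccnd2 and Lta) and Pim2 lower, with a median of 0.43, and Bcl6 and Cxcr5 were lower (-1.52 and -2.17, adjusted p = 0.0259 and 0.0468).

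The rest of the pathway was compared between organs list by list. In iHET mice, where 6.45% of all genes passed, 3 of 5 other chains that pair with Il2rg were higher in the colon. These were Il4ra and Il9r (1.32 and 1.19, edgeR adjusted p = 0.0104 and 0.0135) and Il7r, given above. Stat3 was the only one of 8 other JAK and STAT genes past the FDR (0.82, adjusted p = 0.0109). Of 13 other brakes, 1 passed, the phosphatase gene Ptpn6, which was lower (-0.98, adjusted p = 0.00813). Of 11 relay genes, 1 passed, the kinase gene Akt1, which was higher (0.55, adjusted p = 0.0282). In iKO mice, where 4.07% of all genes passed, 1 of the 5 chains was called, Il4ra, which was higher (0.99, adjusted p = 0.0417). Of the 13 brakes, 1 was called, Ptpn11, which was lower (-0.92, adjusted p = 0.0375). None of the 8 JAK and STAT or 11 relay genes passed.

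**Figure D4:**
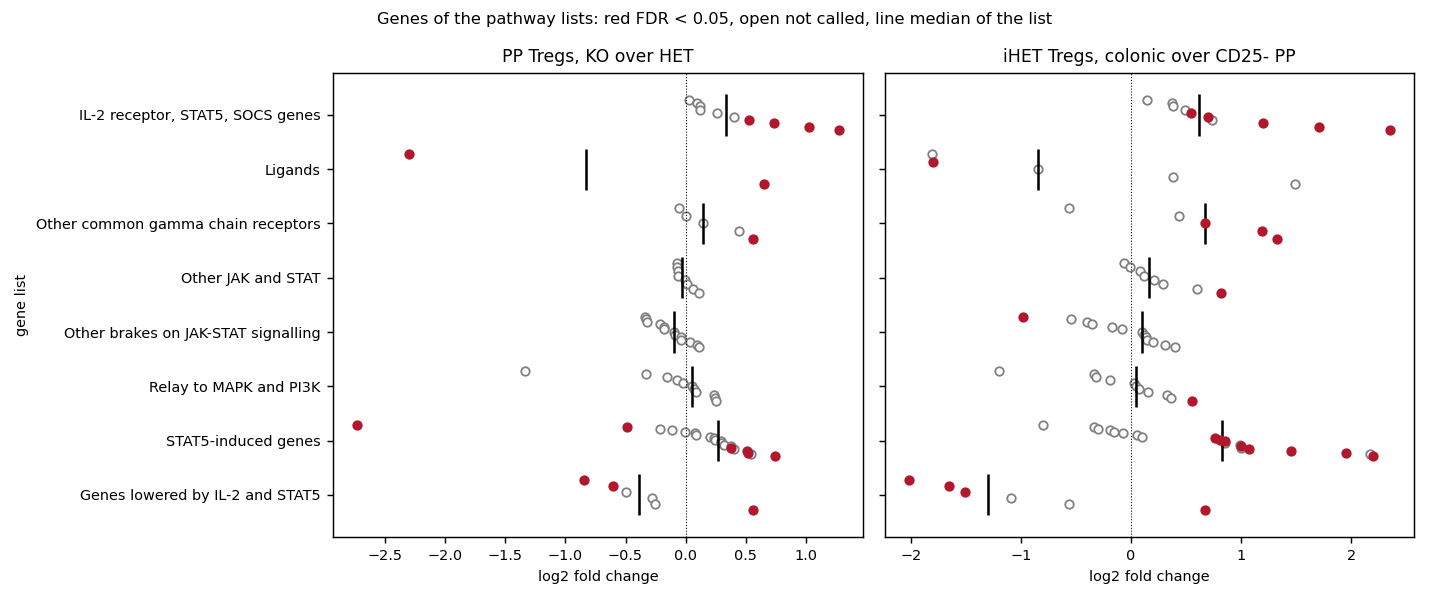
Log2 fold change (horizontal axis) of each tested gene of the pathway lists (rows), in PP Tregs of KO over HET mice on the left and in colonic over CD25- PP Tregs of iHET mice on the right, with red points for an FDR under 0.05, open points for the rest and a line at the list's median. The first row holds the 10 genes, with medians of 0.33 and 0.62, and the medians of the other JAK and STAT genes are -0.03 and 0.16.

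Genes with the pattern most like that of Il2ra, Cish and Socs2 were sought over the 10 libraries of the inducible line, as Pearson's r of log2 CPM across 11437 other genes averaging at least 5 CPM. All 10 libraries share the split by organ, so a high r mostly restates it. Nearest to Il2ra were Lmna (r = 0.987), Cish (0.981) and Gm18795 (0.980), and these were 0.527, 0.198 and 0.998 within the 6 colonic and 0.03, 0.65 and 0.611 within the 4 CD25- PP libraries. Nearest to Cish were Ccdc184 (0.989), Tmem176b (0.985) and Il2ra (0.981), with 0.544, 0.091 and 0.198 within the colon and 0.869, 0.819 and 0.65 within CD25- PP. For Socs2 they were Igsf8 (0.994), Il1rl1 (0.992), which encodes the IL-33 receptor ST2, and Gadd45g (0.990), with 0.891, 0.777 and 0.905 within the colon and 0.903, 0.943 and 0.984 within CD25- PP. Il1rl1 averaged 326 CPM in colonic and 50.4 CPM in CD25- PP Tregs. Libraries are few and share a line and a sequencing run, so these are descriptions without a test.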

How the data were processed

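Tregs were sorted from Peyer's patches or colon, and RNA was made into libraries with a low-input SMARTer kit that keeps no strand. The authors trimmed reads with TrimGalore, aligned them to GRCm38 with STAR, kept uniquely mapped reads and assigned them to GENCODE M22 genes with featureCounts, ignoring strand. The inducible line was sequenced on a NovaSeq with paired ends that were treated as single ends, the Foxp3-YFP-cre line on a HiSeq with single ends. The deposited values are whole counts per gene, with no normalization. Total counts were 26274861 to 35508709 per library, and floors of 3 counts cover counting error only, since reads carry no molecular identifiers.

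Gene IDs were matched to GENCODE M21 without version (55394 and 53706 matched). Genes had to reach 1 CPM in as many libraries as the smaller group holds, counts were TMM-normalized, and edgeR's quasi-likelihood test was run across all genes with a prior count of 1 and an FDR of 0.05 after Benjamini-Hochberg adjustment. Genotypes were compared within each set, with the mouse number as the cage term in colonic Tregs as in the study's design, although the labels do not say that the number is the cage. Organs and interactions were fitted over the 10 libraries of the inducible line or the 8 PP libraries. Intervals are 95% intervals of the fitted log2 fold change. The fits used edgeR 4.0.16, DESeq2 1.42.0 and limma 3.58.1 under R 4.3.3, and figures were drawn with matplotlib 3.10.9. The tests were checked on simulated data. Colonic replicates are separate mice, and the CD25- PP replicates of a group differ in sex, so they are not from 1 mouse. The sources used here do not say so of the Foxp3-YFP-cre PP libraries, whose p-values may then measure technical spread. Each pair of replicates differed beyond sampling noise.

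The 10 genes and all lists were chosen with earlier results of these data known. Named are the 10 genes, the genes of each list past the FDR (4 at most, by p), Il2 and Il15, the 3 genes most like Il2ra, Cish and Socs2, and Junb. Marker genes and list genes beyond these were named after their values were seen. Alternatives were the exact and likelihood ratio tests of the study, DESeq2, its size factors, no filter on low counts, fits with or without a replicate block, the 10 libraries together and leaving out each library. Per the file headers, 0 columns were left unmapped. The authors' flow cytometry was not used here.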

Additional observations from a re-analysis of the deposited data

How the results depend on the processing

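The 10 genes gave 850 values under alternatives. Of these, 775 kept their direction and side of the threshold, 17 lost a call, 14 gained one and 44 changed sign, none of the 12 called values among the latter. The cause of these shifts was not tested. All but 1 of the sign changes came from leaving out 1 library. The other was Jak3 between organs in iKO mice, at -0.02 and at 0.01 without the filter.

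Counts of genes called moved most. In PP Tregs, 409 became 1015 with the replicate block, 696 with DESeq2, 1305 without the filter, 689 with the exact test and 36 to 390 with a library left out (36 without HET replicate 1, 55 without HET replicate 2), and 4 of the 10 genes became 5, 5, 6, 5 and 2 to 4 in the same order (2 without either HET replicate). In CD25- PP Tregs, 0 became 35 with DESeq2, 232 without the filter, 43 with the exact test, 1 over 10 libraries and 2 to 77 with a library left out, and in colonic Tregs 1 became 50, 24, 25 with the likelihood ratio test and 0 to 5. Between organs, 1201 in iHET mice became 2504 with DESeq2, 2848 without the filter and 143 to 1700 with a library left out, and 758 in iKO mice became 430 with the replicate block, 2233, 2348 and 79 to 1096. The 5 of the 10 genes called in iHET mice became 7 with DESeq2, 6 without the filter and 3 to 5 with a library left out, and the 3 in iKO mice became 5, 3 and 2 to 3 (2 without CD25- PP iKO replicate 1). The organ interaction went from 0 to 2 with DESeq2 and 282 without the filter, where the median of all genes moved to 0.15, and the line interaction from 1 to 210, 621 and 0 to 72, with 1 (Cish) and 2 (Cish and Socs2) of the 10 genes.

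With a library left out, these log2 values of uncalled genes crossed 0. In PP Tregs, Jak3 ranged over -0.02 to 0.07. In CD25- PP Tregs, Il2rg ranged over -0.04 to 0.15, Jak3 -0.07 to 0.32, Stat5b -0.08 to 0.14, Socs1 -0.02 to 0.07, Socs2 -0.21 to 0.61 and Socs3 -0.31 to 0.44. In colonic Tregs, Il2ra ranged over -0.02 to 0.19, Il2rg -0.07 to 0.07, Stat5b -0.29 to 0.00, Socs1 -0.02 to 0.16 and Socs3 -0.31 to 0.13. Between organs, Stat5b ranged over -0.07 to 0.27 in iHET and Jak3 -0.20 to 0.19 in iKO mice. The organ interaction ranged over -0.18 to 0.04 for Il2ra, -0.19 to 0.04 for Il2rg, -0.05 to 0.12 for Socs1, -0.54 to 0.28 for Socs2 and -0.65 to 0.13 for Socs3, and the line interaction over -0.04 to 0.17 for Il2rb, -0.04 to 0.15 for Il2rg, -0.30 to 0.10 for Jak3, -0.35 to 0.02 for Stat5a and -0.02 to 0.19 for Stat5b.

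Deviations of same-numbered libraries correlated at 0.098 in PP, 0.101 in CD25- PP and 0.062, 0.293 and -0.089 in colonic Tregs, so the numbers were not shown to pair the libraries by cage or mouse. In the inducible line, number 1 is the male of each group, so the number of CD25- PP libraries is also their sex. The main fits of CD25- PP Tregs and of organs had no term for it. With the replicate block, 0 of the 10 genes were called in CD25- PP Tregs. With the replicate block, 5 of the 10 genes were called in PP Tregs (Socs1 added), 4 in iHET mice between organs (Stat5a lost) and 3 in iKO mice. With 2 or 3 libraries a group, small differences of the 10 genes were not detectable. In CD25- PP Tregs, the intervals of Socs2 and Socs3 were the widest of the 10 and exceed 1 log2 unit in width. No gene passed edgeR's quasi-likelihood test there, Junb included.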
